A study of Mus musculus with 74 samples.

Results

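The genes described here are 35 genes of glycolysis and of the response to low oxygen, chosen by symbol and followed over stage, strain and karyotype in fetal mouse gonads. Of these 35 genes, 32 had at least 1 probe on the array, with 50 probes in all out of 25697, and 28 genes with 38 probes lay in the brighter part of the array that was tested (12849 probes). Gonads of XY and XX embryos were collected from the inbred strains 129S1/SvImJ (129S1) and C57BL/6J (B6), both wild type, with no treatment, at 6 stages 4.8 h apart, the first at E11.0 and the last at E12.0. On this day of gestation the bipotential gonad starts to become a testis or an ovary, and the stage of an embryo was set by its tail somites. Each of the 74 arrays held the RNA of 1 pair of gonads cut away from the mesonephros, so the replicates are embryos. There were 38 XY and 36 XX arrays, 37 of each strain. A group of 1 strain, karyotype and stage had 3 arrays, except that 129S1 XY had 5 at E11.0 and 2 at E12.0, and B6 XY had 4 at E11.2.

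Glycolysis turns glucose into pyruvate in the cytosol, and lactate dehydrogenase can pass the pyruvate on to lactate. When oxygen is short, the subunit HIF-1α (gene Hif1a) is no longer degraded, enters the nucleus, pairs with ARNT and binds short motifs in front of genes for glycolytic enzymes, glucose transporters, angiogenic factors and its own negative regulators. HIF-1α is controlled mainly as a protein, so that the Hif1a transcript says little of its activity. Early embryos are glycolytic, and glucose use has been tied to the first steps of testis differentiation in mice.

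All values are quantile-normalized log2 signals, so a difference of 1 is a doubling of signal. Differences come from a limma model of the 24 group means and stand with their standard error (SE), and p values are adjusted over the 12849 probes by the Benjamini-Hochberg method, with 0.05 as the threshold for "rose", "fell" and "called". A gene with several probes is given by its brightest one, and signals of different probes are not compared. Whole gonads were measured, so fewer cells of a type and less RNA per cell cannot be told apart. The tissue label held: Wt1, a transcription factor of gonadal somatic cells, averaged 13.18, and the Sertoli cell genes Sox9, Amh and Dhh were called higher at E12.0 than at E11.0 in XY gonads (3 of 3) and in no case in XX gonads (0 of 3), whereas Emx2 of the early gonad and Ddx4 of germ cells were too dim to be tested.

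The 35 genes fall into 5 roles. Of 15 glycolytic enzymes, 13 had a probe and 12 were tested (19 probes): the hexokinases Hk1 and Hk2, the phosphofructokinases Pfkl, Pfkm and Pfkp, the aldolases Aldoa and Aldoc, and Tpi1, Gapdh, Pgam1, Pkm and Ldha. Eno2 was too dim to be tested. The glucose transporters Slc2a1 and Slc2a3 and the lactate exporter Slc16a3 were all tested, as were Pfkfb3 and Pdk1, which set the flux into glycolysis and out of pyruvate. Of 14 other hypoxia-induced genes, 13 had a probe and 10 were tested (13 probes), whereas Bnip3, Higd1a and Car9, a pH regulator and classical marker of hypoxic tissue, were too dim. The Car9 probes reached no more than 7.61 on any array, against a median of 7.40 over all probes of an array. Hif1a itself was tested with 1 probe. For Gpi1, Eno1 and Ankrd37 no expression value was analysed here, and they enter the promoter counts only.

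A single array stood apart from the other 73 in these genes. Replicate 2 of 129S1 XY at E11.6 held the highest value of all 74 arrays for 18 of the 27 genes whose brightest probe was tested, with 7 of 12 glycolytic enzymes and 8 of 10 other hypoxia-induced genes among them. Over all 12849 probes the same array held the highest value for 3.56%, and no other array held the highest value for more than 2 of the 27 genes. The array was singled out by these values, so they are a description without a test.

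The genes that were high on that array span the roles. Slc2a1, which carries glucose into cells, read 12.98 on it, against 11.38 and 11.22 on replicates 1 and 3 of the same group, and at most 11.82 on any other array. Hk2, the inducible hexokinase, read 12.33 against 10.82 and 10.79, and Ldha read 14.14 against 13.12 and 13.27. Bhlhe40, a repressor of the circadian clock that is induced by low oxygen, read 10.19 against 8.36 and 8.55, and the stress gene Ndrg1 read 9.61 against 8.13 and 8.02. Both probes of Vegfa, the main angiogenic factor, were at their highest (11.23 and 10.07), as were the prolyl hydroxylases Egln1 and Egln3, which mark HIF-1α for degradation, the collagen hydroxylases P4ha1 and P4ha2, and Ddit4, an inhibitor of mTORC1 signalling.

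Set against the mean of its 2 group mates, this array was higher at 37 of 38 member probes, with a median difference of 0.77, and at 6134 of all 12849 probes, with a median of −0.01. A difference over 1 was seen at 12 of the 38 member probes (31.6%) and at 63 of all probes (0.49%). Not every member took part. Hif1a differed by 0.04, Adm by 0.11, Mxi1 by 0.12 and Hk1 by 0.18. Among genes that are no members, 11 of 28 probes of 21 further hypoxia-induced genes were at their highest on it, whereas 0 of 9 probes of further glycolytic genes and 0 of 17 probes of the citric acid cycle and respiratory chain were, and the mean over those 17 probes was the lowest of the 74 arrays (10.81, against 10.96 and 11.09 on the group mates).

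Other lists moved with it. The mean over 5 probes of immediate early and heat shock genes was the highest of all arrays (9.77, against 9.03 and 9.05), as was the mean over 7 probes of endothelial markers (9.33, against 8.76 and 8.86). Red blood cell genes ranked at place 3 of the 74 arrays (13.22, against 12.29 and 13.01) and macrophage genes at place 12. The part of handling, of RNA quality or of other cells in this array was not tested. Results that rest on it are given with and without it below. The plot of highest values per array shows how far it lies from the rest.

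**Figure D1:**
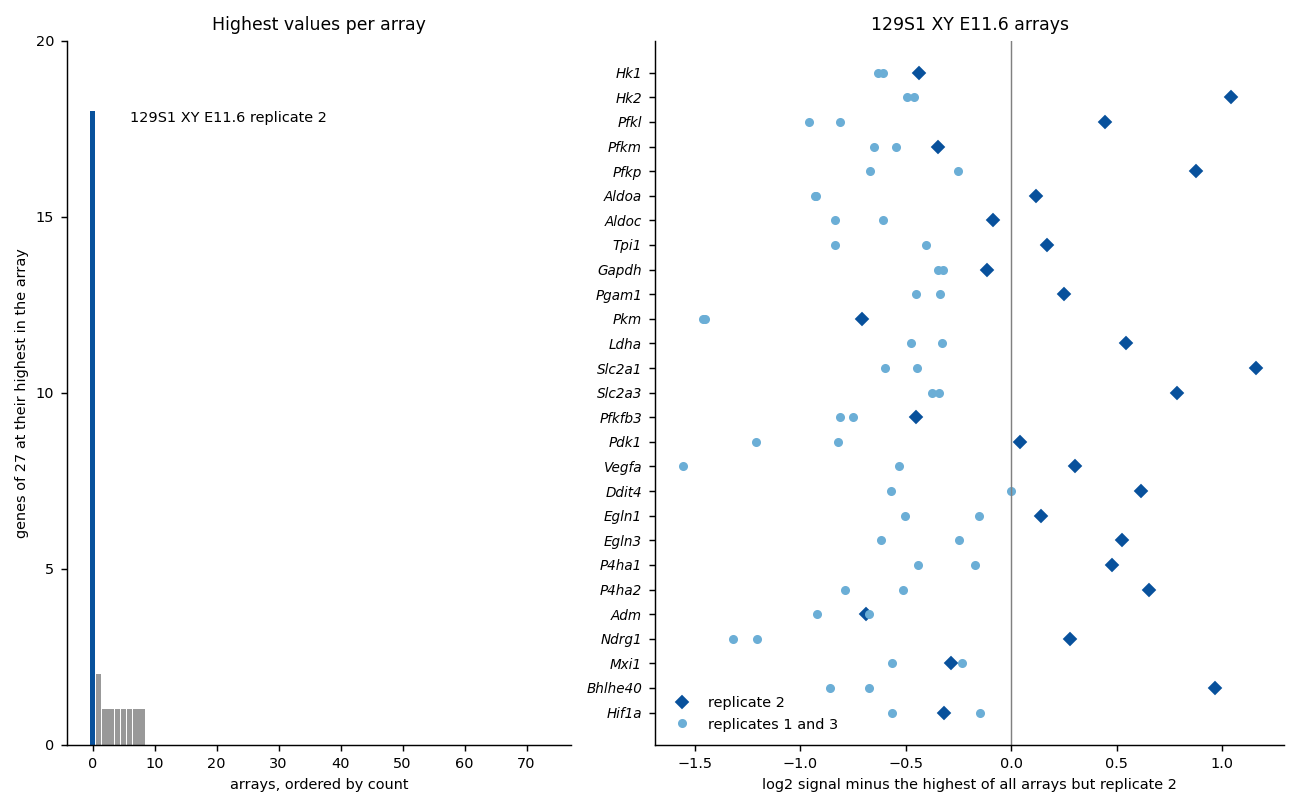
Left, the number of the 27 genes that had their highest value on each of the 74 arrays, ordered by that number; 129S1 XY E11.6 replicate 2 had 18 and the next array 2. Right, for each gene the log2 signal of replicate 2 (diamonds) and of replicates 1 and 3 (circles) of 129S1 XY at E11.6, minus the highest signal of all arrays other than replicate 2; diamonds right of the line at 0 are the highest of all arrays.

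Averaged over both strains, glycolytic enzymes of XY gonads were lower at E12.0 than at E11.0. Within B6 alone, 0 of 19 glycolytic probes were called. Over both strains, 10 of 19 glycolytic probes fell and 0 rose, in 8 of 12 genes (9.15% of all probes were called lower and 7.14% higher), and the median of the 19 probes was −0.33, against −0.01 over all probes. Tpi1, which interconverts the triose phosphates, fell by 0.60 ± 0.10 (SE) to 0.658 of its E11.0 signal (adjusted p = 6.34e-06). Pkm, the pyruvate kinase that makes pyruvate, fell by 0.51 ± 0.11 (adjusted p = 0.000439), and the aldolase Aldoc fell by 0.51 ± 0.11 (adjusted p = 0.000658). The muscle-type phosphofructokinase Pfkm fell by 0.33 ± 0.08 (adjusted p = 0.000998). Gapdh, Ldha, Pfkl and Aldoa also fell, by 0.25, 0.39, 0.55 and 0.49, of which Aldoa only just passed (adjusted p = 0.044) and lost its call when any of 10 single arrays was left out, and Ldha (adjusted p = 0.0116) lost its call without replicate 2 of 129S1 XY at E12.0 (adjusted p = 0.0631). Of these 8 genes, Ldha stood at 0.11 within B6 XY gonads, Gapdh at −0.02, Aldoc at −0.07 and Aldoa at −0.21. Tpi1 stood at −0.22 there, Pfkm at −0.25, Pkm at −0.34 and Pfkl at −0.40. Probes of the same gene did not always move together. Over both strains, the dimmer probe of Pfkl differed by 0.07 ± 0.15. Of 3 probes each, 1 of Tpi1 and 2 of Pfkm were called.

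The enzymes that fell span the pathway, with phosphofructokinase and aldolase in its upper part and pyruvate kinase and lactate dehydrogenase at its end. Other enzymes, among them those of the first step, were not called. Hk1 differed by −0.03 ± 0.16, Hk2 by 0.06 ± 0.15, the platelet-type phosphofructokinase Pfkp by 0.17 ± 0.16 and Pgam1 by −0.16 ± 0.13. Transporters and flux regulators were not called in XY gonads either (0 of 5 probes), with Slc2a1 at −0.33 ± 0.14 (adjusted p = 0.119), which became a call without the E11.6 array described above (adjusted p = 0.0104). In XX gonads, leaving out that array likewise made calls of Slc2a1 (−0.31, adjusted p = 0.158 with it and 0.0191 without) and of Pfkl (−0.38, adjusted p = 0.0989 with it and 0.0405 without). With karyotypes and strains together, 2 of 3 transporter probes were called lower at E12.0 than at E11.0 and 0 higher. The share of all probes called in that comparison is not given. Slc16a3 was called in the F test of any course over the stages (adjusted p = 0.0142), as were 21.9% of all probes.

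The arrays of each strain are given for Tpi1, Aldoc and Pkm, which had the smallest adjusted p values among the enzymes over both strains, and for Ldha. Tpi1 read 12.70 and 12.46 in 129S1 XY gonads at E12.0, against 13.59, 13.40, 13.36, 13.74 and 13.75 at E11.0. In B6 XY gonads it read 13.30, 13.26 and 13.15 at E12.0, against 13.61, 13.50 and 13.27 at E11.0. The stages did not overlap in 129S1 and overlapped in B6. Such a gap is common with so few arrays: 15.3% of all probes lay wholly lower at E12.0 in 129S1 XY gonads and 9.88% in B6 XY gonads. Aldoc read 7.47 and 7.60 in 129S1 XY gonads at E12.0, against 8.60, 8.26, 8.38, 8.58 and 8.57 at E11.0, and 8.48, 8.11 and 8.22 in B6 XY gonads at E12.0, against 8.15, 8.47 and 8.41 at E11.0. Within both strains Pkm lay lower at E12.0 than at E11.0 on every XY array: it read 11.98 and 11.84 in 129S1 at E12.0, against 12.60, 12.35, 12.51, 12.66 and 12.80 at E11.0, and 13.28, 13.19 and 13.12 in B6 at E12.0, against 13.38, 13.66 and 13.57 at E11.0. Ldha, which makes lactate, read 12.62 and 12.52 in 129S1 XY gonads at E12.0, against 13.35, 13.30, 13.51, 13.53 and 13.60 at E11.0. In B6 XY gonads Ldha read 13.51, 13.36 and 13.48 at E12.0, against 13.50, 13.26 and 13.26 at E11.0, and the stages overlapped.

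Within 129S1 XY gonads, 11 of 19 glycolytic probes fell and 0 rose (6.82% of all probes were called lower and 5.38% higher), with Tpi1 at −0.98 ± 0.15 (adjusted p = 6.15e-07), Aldoc at −0.95 ± 0.16 (adjusted p = 1.55e-05) and Ldha at −0.89 ± 0.16 (adjusted p = 4.92e-05), and the median over the 19 probes was −0.49. Within B6 XY gonads 0 of 19 fell (1.99% of all probes were called lower), with a median of −0.07 and Pfkl lowest at −0.40 ± 0.21. The difference between strains in this change, over both karyotypes, was past the threshold for Ldha alone among the members (−0.71 ± 0.16, adjusted p = 0.0217; 0.249% of all probes were called), and it was −0.61 ± 0.16 for Aldoc (adjusted p = 0.0813, or 0.049 without the E11.6 array) and −0.50 ± 0.14 for Tpi1 (adjusted p = 0.143). Leaving out any of 8 single arrays, among them both 129S1 XY arrays at E12.0, took the call of Ldha away, with an adjusted p of up to 0.0786. With all arrays, the other glycolytic enzymes were not shown to differ in their change between strains.

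At E12.0, 129S1 XY gonads were read on only 2 arrays. Without replicate 1 of these, 8 of the 38 member probes were called in that group in place of 13. With E11.8 in place of E12.0, a choice made after seeing the data, 7 of 38 probes were called over both strains in place of 11, 6 of them lower. The share of all probes called is not given for either setting, so neither count is a result about the members. At E11.8 Aldoc already read 7.97, 7.83 and 7.81 in 129S1 XY gonads.

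**Figure D2:**
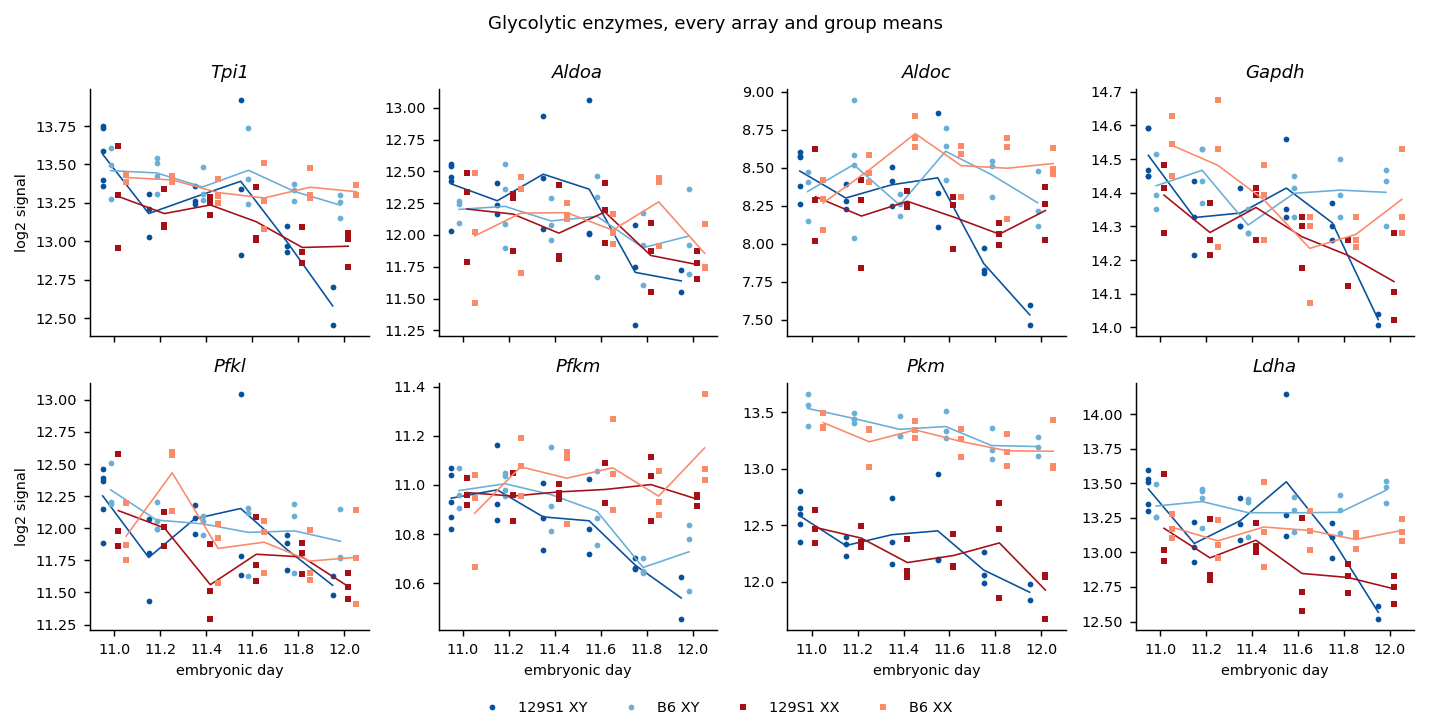
Quantile-normalized log2 signal (y axis, a range of its own per gene) of 8 glycolytic enzymes against embryonic day, with every array as a point (circles XY, squares XX; dark 129S1, light B6) and lines through the group means. The 129S1 XY line ends lowest at E12.0 for Tpi1, Aldoc and Ldha, the single high 129S1 XY point at E11.6 is replicate 2, and for Pkm the B6 points lie above the 129S1 points throughout.

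In XX gonads fewer glycolytic enzymes fell: 3 of 19 probes, in Pkm and Gapdh, and 0 rose (5.72% of all probes were called lower and 5.98% higher). Pkm fell by 0.40 ± 0.11 (adjusted p = 0.00785) and Gapdh, the enzyme that makes the first NADH of the pathway, by 0.21 ± 0.06 (adjusted p = 0.0203), which lost its call when any of 5 single arrays was left out (adjusted p of up to 0.0829). Gapdh read 14.28, 14.11 and 14.02 in 129S1 XX gonads at E12.0, against 14.48, 14.41 and 14.28 at E11.0, and 14.53, 14.28 and 14.33 in B6 XX gonads at E12.0, against 14.45, 14.55 and 14.63 at E11.0. The dimmer probe of Gapdh stood at −0.29 ± 0.07 in XX gonads, both strains together (adjusted p = 0.00393). The median over the 19 probes was −0.13. Within a strain, 1 of 19 glycolytic probes fell in 129S1 XX gonads, that of Pkm, and 0 in B6 XX gonads (1.98% and 2.35% of all probes were called lower). With array quality weights, XX gonads had 13 called member probes in place of 6, 9 of them lower, so the count in XX gonads is sensitive to how single arrays are weighted. The share of all probes called with these weights is not given, so the higher count is no result about the members.

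The test of the difference itself separated XY from XX gonads at 2 of 12 enzymes, with 2 of 19 glycolytic probes called. For Pfkm its brightest probe was called, and its other tested probes were not. Between E11.0 and E12.0 the change was lower in XY than in XX gonads by 0.45 ± 0.11 for Pfkm (adjusted p = 0.0036) and by 0.59 ± 0.16 for Aldoc (adjusted p = 0.0126, or 0.0515 without replicate 1 of 129S1 XY at E12.0), among 2.74% of all probes that were called lower. Pfkm read 10.45 and 10.63 in 129S1 XY and 10.84, 10.78 and 10.57 in B6 XY gonads at E12.0. In XX gonads at E12.0 it read 10.96, 10.95 and 10.92 in 129S1 and 11.06, 11.02 and 11.37 in B6, so that every XY array lay below every XX array, as at 2.61% of all probes. The change of Tpi1 was lower in XY gonads by 0.40 ± 0.14 without passing (adjusted p = 0.108, or 0.0463 without the E11.6 array), and for Pkm (−0.10 ± 0.15) and Gapdh (−0.05 ± 0.09) the difference was within its error.

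Promoter sequence gives a view of the enzymes that the values did not use. The core of the motif bound by HIF-1α with ARNT reads ACGTG or GCGTG, and it was searched on both strands in the 250 bases before the start of each gene in the RefSeq promoters of GRCm38.p6, with overlapping matches counted. It was present in the first listed promoter of 24 of the 32 members in that table (75%), of 9 of 15 glycolytic enzymes (60%) and of 10 of 12 other hypoxia-induced genes (83.3%), and in 38.6% of all 32851 promoters. The members were chosen as genes of glycolysis and hypoxia, so these shares are a description without a test. The last 150 bases before the start are shown for 6 of the 8 enzymes that fell in XY gonads, with every match in capitals, because they differ widely in the number of matches.
Ldha, chr7:46845654-46845803, plus strand: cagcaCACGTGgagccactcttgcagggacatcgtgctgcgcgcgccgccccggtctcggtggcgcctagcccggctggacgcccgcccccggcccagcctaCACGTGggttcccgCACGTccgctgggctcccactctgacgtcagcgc
Gapdh, chr6:125165774-125165923, minus strand: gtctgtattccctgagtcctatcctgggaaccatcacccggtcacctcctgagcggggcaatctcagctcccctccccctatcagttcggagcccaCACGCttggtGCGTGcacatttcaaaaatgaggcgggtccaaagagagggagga
Pfkl, chr10:78009808-78009957, minus strand: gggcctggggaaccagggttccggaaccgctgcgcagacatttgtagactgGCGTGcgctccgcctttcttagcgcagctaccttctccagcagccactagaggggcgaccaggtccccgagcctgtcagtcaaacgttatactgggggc
Aldoc, chr11:78322923-78323072, plus strand: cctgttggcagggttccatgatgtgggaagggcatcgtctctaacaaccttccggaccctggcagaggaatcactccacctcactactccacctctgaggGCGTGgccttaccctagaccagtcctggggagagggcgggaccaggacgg
Pfkm, chr15:98092439-98092588, plus strand: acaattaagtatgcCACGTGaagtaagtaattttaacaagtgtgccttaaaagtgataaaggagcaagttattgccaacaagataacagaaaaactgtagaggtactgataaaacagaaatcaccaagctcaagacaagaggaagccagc
Tpi1, chr6:124814159-124814308, minus strand: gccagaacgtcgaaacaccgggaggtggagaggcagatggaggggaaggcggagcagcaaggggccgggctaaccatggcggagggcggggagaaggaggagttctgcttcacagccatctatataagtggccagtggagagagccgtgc
Ldha holds 5 matches, 4 of them as the pairs that a palindromic CACGTG gives. Pfkm holds 2, which are 1 such pair, and Gapdh holds 2 separate matches. Pfkl and Aldoc hold 1 each, and Tpi1 holds 0. Pkm and Aldoa, which also fell and are not shown, hold 0 in their first listed promoter too, so that 3 of the 8 enzymes that fell hold none there, while each further listed promoter of Pkm and Aldoa holds 1. A match is a description of the letters and no measured site, and binding was not measured here. Whether the matches have a part in the falls was not tested.

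Among the other hypoxia-induced genes, 0 of 13 probes fell and 1 rose in XY gonads, that of Bhlhe40, where 9.15% of all probes were called lower and 7.14% higher. In XX gonads 0 fell and 3 rose, those of Ndrg1 and Adm, where 5.72% of all probes were called lower and 5.98% higher. A difference between this role and the enzymes was not tested. The median change over the 13 probes was 0.12 in XY and 0.04 in XX gonads. Bhlhe40 and Ndrg1 are described first, since their changes were the largest and ran apart between the karyotypes.

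Bhlhe40 rose in XY gonads to 2.18 times its E11.0 signal (1.12 ± 0.16, adjusted p = 1.69e-07). It read 8.67 and 9.22 in 129S1 XY gonads at E12.0, against 7.82, 7.92, 8.02, 7.87 and 7.95 at E11.0. In B6 XY gonads it read 8.76, 9.10 and 9.17 at E12.0, against 7.85, 7.97 and 7.55 at E11.0. The 5 arrays of E12.0 lay above all 8 arrays of E11.0, as was the case at 1 of 38 member probes and at 2.76% of all probes. In XX gonads the change was 0.04 ± 0.16, and the difference between XY and XX changes was 1.08 ± 0.23 (adjusted p = 0.000606; 2.9% of all probes were called higher). Within each strain Bhlhe40 was called in XY gonads, at 1.03 ± 0.23 in 129S1 (adjusted p = 0.000881) and 1.22 ± 0.22 in B6 (adjusted p = 9.49e-05), and it was the only member probe called in B6 XY gonads (3.59% of all probes were called higher there). Without replicate 2 of 129S1 XY at E12.0 the call in 129S1 was lost (adjusted p = 0.0966), and without replicate 2 of B6 XY at E11.0 a second member probe was called in B6.

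The arrays between the first and last stage are given as a description. In 129S1 XY gonads all 3 arrays of E11.6 (8.36, 10.19 and 8.55) lay above those of E11.4 (7.97, 8.03 and 8.04), and in B6 XY gonads the arrays of E11.8 (8.58, 8.79 and 8.64) were the first that lay above all earlier ones. At E11.6 the difference between XY and XX was 1.27 ± 0.22 in 129S1 (adjusted p = 0.000118) and, without replicate 2 of 129S1 XY, 0.70 ± 0.18 (adjusted p = 0.0369). The share of all probes whose arrays lay apart in this way is not given. In the step from E11.4 to E11.6, strains and karyotypes together, 0 of 38 member probes were called (0.483% of all probes). The timing in XY gonads and a strain difference in it were not tested.

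Ndrg1 took the opposite course. In XX gonads it rose to 1.90 times its E11.0 signal (0.93 ± 0.14, adjusted p = 2.15e-06), and its other probe gave 0.94 ± 0.14. It read 8.98, 8.95 and 9.00 in 129S1 XX gonads at E12.0, against 7.85, 7.97 and 8.10 at E11.0, and 8.66, 8.54 and 9.08 in B6 XX gonads at E12.0, against 8.16, 7.72 and 7.86 at E11.0. Its rise was called in both strains (1.00 ± 0.20 in 129S1, adjusted p = 0.000617; 0.85 ± 0.20 in B6, adjusted p = 0.00454; 2.33% and 3.25% of all probes were called higher), in B6 not without replicate 3 of E12.0 (adjusted p = 0.0645). In XY gonads the change was 0.12 ± 0.15, and the XY change was lower than the XX change by 0.80 ± 0.20 (adjusted p = 0.00745). This leaves out the stages between: in B6 XY gonads Ndrg1 averaged 7.80 at E11.0, 8.39 at E11.6 and 7.93 at E12.0. Its other probe changed by 0.52 ± 0.20 in B6 XY gonads without a call (adjusted p = 0.125).

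Adm encodes adrenomedullin, a peptide that widens vessels. It rose in XX gonads by 0.35 ± 0.11 (adjusted p = 0.032), a call that leaving out any of 5 single arrays took away (adjusted p of up to 0.115). It was −0.25 ± 0.12 in XY gonads (adjusted p = 0.142), and its change was lower in XY than in XX gonads by 0.61 ± 0.16 (adjusted p = 0.0119). At E12.0 it read 7.34 and 7.28 in 129S1 XY and 7.53, 7.48 and 7.45 in B6 XY gonads. In XX gonads at E12.0 it read 7.70, 7.92 and 8.06 in 129S1 and 7.80, 8.17 and 7.88 in B6. The karyotypes did not overlap (2.61% of all probes lay wholly lower in XY gonads), and all values were low on the array, whose median is 7.40.

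**Figure D3:**
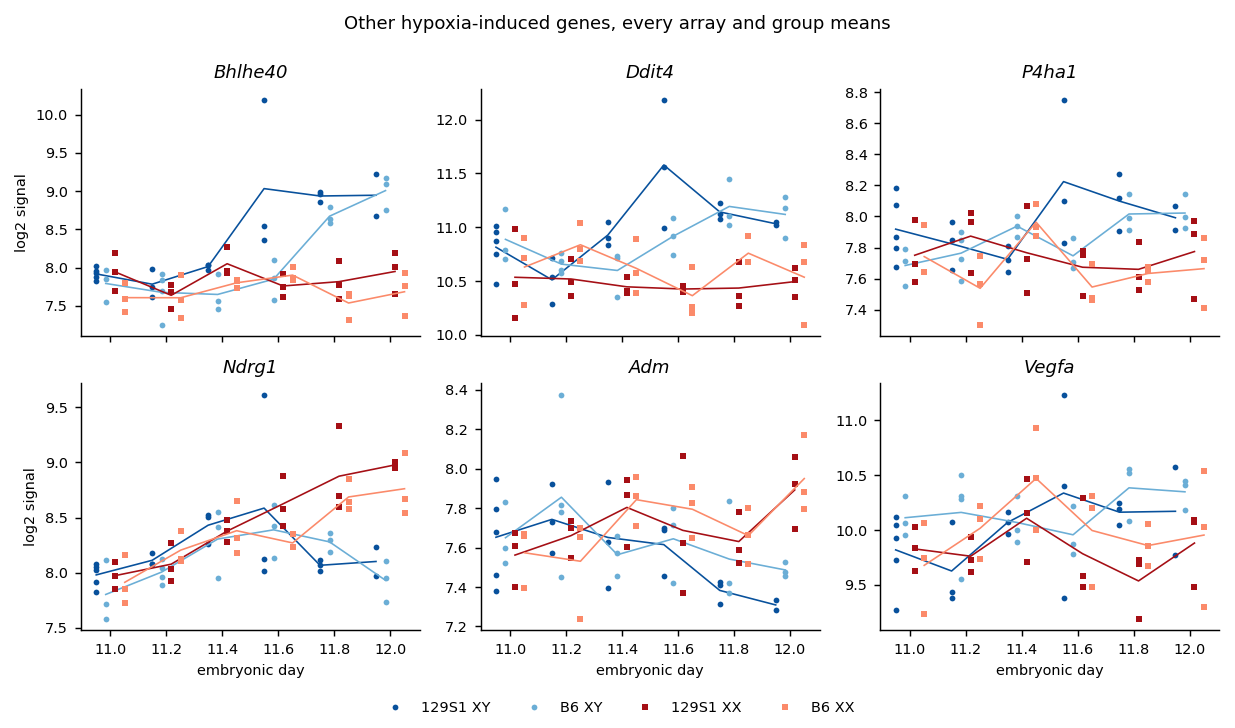
Quantile-normalized log2 signal (y axis, a range of its own per gene) of 6 other hypoxia-induced genes against embryonic day, every array as a point (circles XY, squares XX; dark 129S1, light B6) with lines through the group means. Bhlhe40 and Ddit4 end higher in XY, Ndrg1 and Adm end higher in XX, and the highest 129S1 XY point at E11.6 in Bhlhe40, Ddit4, P4ha1, Ndrg1 and Vegfa is replicate 2.

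Averaged over the 6 stages and both strains, XY and XX gonads differed at 9 of 38 member probes: 5 were higher and 4 lower in XY gonads (5.3% of all probes were called higher and 5.02% lower). Bhlhe40 was higher by 0.50 ± 0.06 (adjusted p = 1.55e-08) and Ddit4 by 0.40 ± 0.05 (adjusted p = 7.88e-08). P4ha1, which matures collagen, was higher by 0.20 ± 0.04 (adjusted p = 0.00089), Ldha by 0.20 ± 0.05 (adjusted p = 0.000896) and Hk2 by 0.22 ± 0.06 (adjusted p = 0.00737). Pfkm was lower by 0.16 ± 0.03 (adjusted p = 9.71e-05) and Ndrg1 by 0.26 ± 0.06 (adjusted p = 0.000849), each with 2 probes. Without replicate 2 of 129S1 XY at E11.6 all 9 calls remained, with Ddit4 at 0.37 ± 0.05 and Hk2 at 0.17 ± 0.04. These differences were small against the spread: Ldha ran over 12.52, 13.30 and 14.14 (lowest, median, highest) in 38 XY arrays, against 12.58, 13.05 and 13.57 in 36 XX arrays. Hk2 ran over 10.11, 10.92 and 12.33 in XY arrays, against 10.25, 10.71 and 11.27 in XX arrays, and P4ha1 over 7.55, 7.88 and 8.75 in XY arrays, against 7.30, 7.70 and 8.08 in XX arrays. All 3 overlapped between the karyotypes.

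Stage by stage, no member differed between XY and XX gonads at E11.0, E11.2 or E11.4, where few probes did at all (8, 6 and 12 of 12849, or 0.0623%, 0.0467% and 0.0934%). At E11.6, 3 of 38 member probes were higher in XY and 0 lower (1.27% and 0.389% of all probes): Ddit4 by 0.85 ± 0.13 (adjusted p = 1.09e-05), Hk2 by 0.62 ± 0.14 (adjusted p = 0.00732) and Bhlhe40 by 0.61 ± 0.16 (adjusted p = 0.0224). Without replicate 2 of 129S1 XY only Ddit4 kept its call (0.70 ± 0.13, adjusted p = 0.000325), while Hk2 stood at 0.36 ± 0.12 (adjusted p = 0.136) and Bhlhe40 at 0.32 ± 0.12 (adjusted p = 0.348). In 129S1 alone 6 probes were higher and 0 lower in XY gonads at E11.6 (1.28% and 0.498% of all probes), in Hk2, Ldha, Vegfa, Ddit4, P4ha1 and Bhlhe40, and without that array 2, in Ddit4 and Bhlhe40 (1.1% of all probes either way). For Vegfa the call was that of its dimmer probe (0.65 ± 0.17, adjusted p = 0.021), and its brightest was not called (0.55 ± 0.30, adjusted p = 0.66). In B6 alone 0 of 38 were called (0.218% of all probes).

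Over both strains, Ddit4 was the member whose difference at E11.6 was called with and without the array. It read 11.56, 12.18 and 10.99 in 129S1 XY and 11.08, 10.92 and 10.74 in B6 XY gonads at E11.6. In XX gonads at E11.6 it read 10.45, 10.43 and 10.40 in 129S1 and 10.21, 10.63 and 10.26 in B6. Between E11.0 and E12.0 its change was 0.22 ± 0.14 in XY and −0.07 ± 0.13 in XX gonads, neither of them called, and it was called in the test of a course over the 6 stages that differs between karyotypes (adjusted p = 0.00338), as were 8 of 38 member probes in all (5.68% of all probes). The test of any course over the stages, karyotypes together, called 14 of 38 member probes, 9 of them glycolytic (21.9% of all probes).

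At E11.8, 3 of 38 probes were higher in XY gonads (5.26% of all probes), those of Bhlhe40, Ddit4 and P4ha1 (0.41 ± 0.11, adjusted p = 0.00798), and 4 were lower (3.71% of all probes), those of Pfkm and Ndrg1. At E12.0, 2 were higher (4.73% of all probes) and 6 lower (5.7% of all probes). Bhlhe40 was higher by 1.16 ± 0.17 (adjusted p = 2.76e-07) and Ddit4 by 0.56 ± 0.14 (adjusted p = 0.00396), whereas Ndrg1 was lower by 0.85 ± 0.15 (adjusted p = 2.38e-05), Pfkm by 0.41 ± 0.08 (adjusted p = 9.08e-05), Adm by 0.52 ± 0.12 (adjusted p = 0.00135) and Aldoc by 0.47 ± 0.12 (adjusted p = 0.00382). The promoters of Ddit4, higher in XY gonads at E12.0, and Adm, higher in XX gonads, are shown because both hold the motif described above, with 1 and 2 matches in the printed 150 bases.
Ddit4, chr10:59951771-59951920, minus strand: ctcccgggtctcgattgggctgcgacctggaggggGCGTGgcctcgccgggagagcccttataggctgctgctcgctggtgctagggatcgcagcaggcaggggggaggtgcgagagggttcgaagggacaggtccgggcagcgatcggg
Adm, chr7:110627507-110627656, plus strand: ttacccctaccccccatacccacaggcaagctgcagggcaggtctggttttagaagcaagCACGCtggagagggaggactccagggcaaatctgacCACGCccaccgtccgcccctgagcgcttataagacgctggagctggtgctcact

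Between strains, 7 of 19 glycolytic probes were lower in 129S1 than in B6 over all stages and both karyotypes, and 0 higher (14.4% of all probes were called lower and 16% higher). Pkm had the largest difference of the members, at −1.03 ± 0.04 (adjusted p = 1.93e-28), or 0.491 of the B6 signal. Its values ran over 11.67, 12.33 and 12.95 (lowest, median, highest) in 37 129S1 arrays, against 13.01, 13.34 and 13.66 in 37 B6 arrays. The strains did not overlap, which held for no other member and for 0.483% of all probes in that direction. Pkm was read by 1 probe, and whether the strains differ in the sequence under it was not tested, so a lower transcript level and a weaker hybridization cannot be told apart here.

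The other strain differences were smaller. Aldoc was lower by 0.27 ± 0.05 (adjusted p = 2.28e-06), with 7.47, 8.26 and 8.86 in 129S1 arrays, against 8.04, 8.47 and 8.94 in B6 arrays. Hk2 was lower by 0.23 ± 0.06 (adjusted p = 0.00144), Tpi1 by 0.22 ± 0.04 (adjusted p = 1.74e-05), Ldha by 0.19 ± 0.05 (adjusted p = 0.000579) and Gapdh by 0.09 ± 0.03 (adjusted p = 0.00334), and the call left was a dimmer probe of Pfkm (−0.10 ± 0.04, adjusted p = 0.0238). Without the E11.6 array 12 of 38 member probes in place of 8 differed between strains, 11 of them lower in 129S1. Of all probes, 30% were called either way without that array and 30.3% with it, so the count of members is close to that share. Tpi1 ran over 12.46, 13.17 and 13.92 in 129S1 arrays, against 13.08, 13.37 and 13.74 in B6 arrays, and Ldha over 12.52, 13.05 and 14.14 in 129S1 arrays, against 12.89, 13.24 and 13.51 in B6 arrays. The lowest 129S1 value of all 3 genes is on an XY array at E12.0, and the highest Tpi1 and Ldha values are those of the E11.6 array. Of the 13 probes of other hypoxia-induced genes, 1 differed, that of Bhlhe40, which was higher in 129S1 by 0.25 ± 0.06 (adjusted p = 0.00151), or by 0.20 ± 0.05 without that array. It ran over 7.45, 7.95 and 10.19 in 129S1 arrays, against 7.25, 7.84 and 9.17 in B6 arrays.

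**Figure D4:**
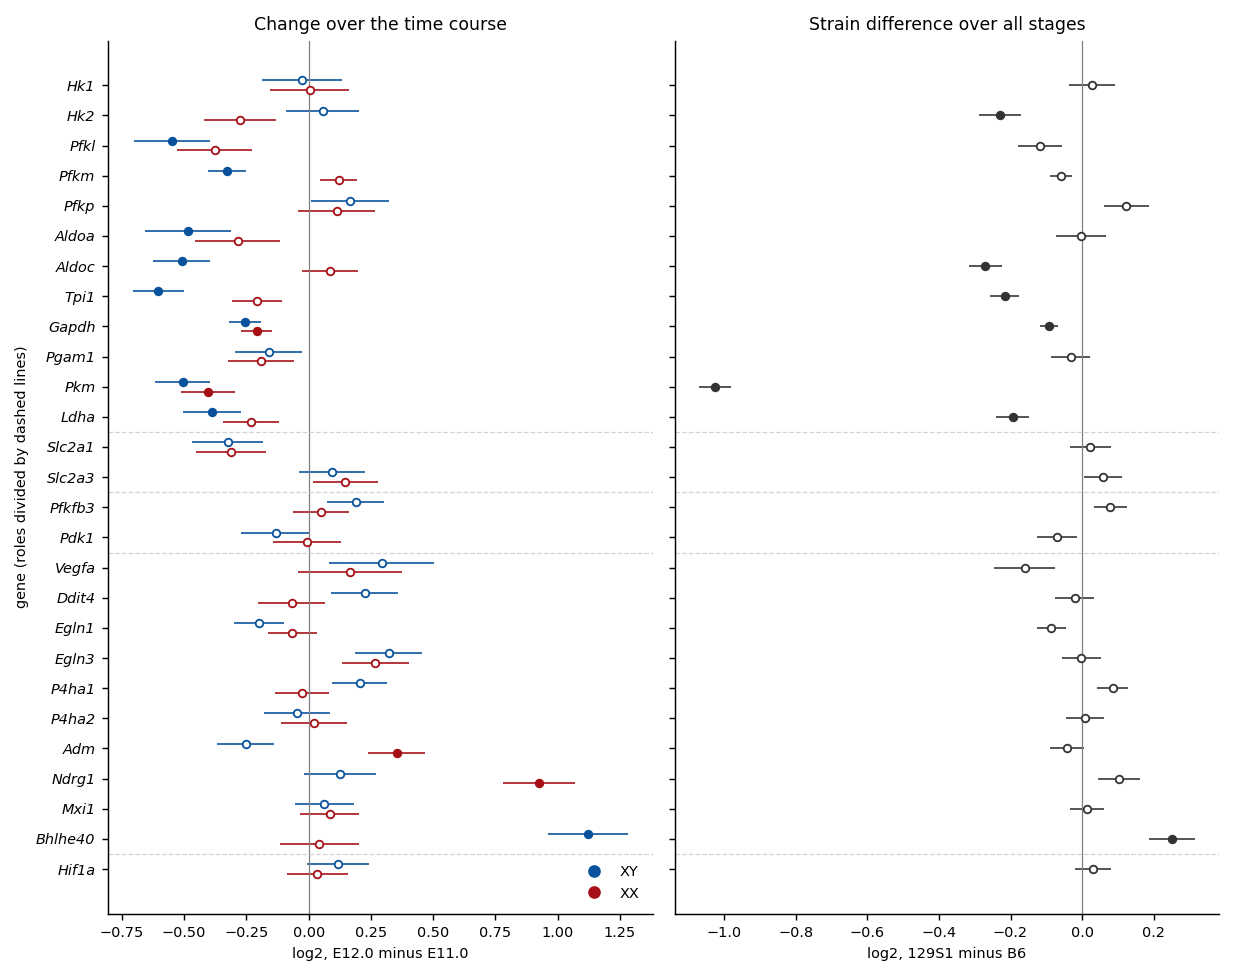
Left, log2 difference of E12.0 minus E11.0 in XY (blue) and XX (red) gonads, both strains together, for the 27 genes whose brightest probe was tested. Right, log2 difference of 129S1 minus B6 over all stages. Bars are standard errors, filled points have an adjusted p under 0.05, and dashed lines divide the roles; the filled points left of 0 are glycolytic enzymes in both panels, and Pkm at −1.03 lies farthest from 0 in the right panel.

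Hif1a and several genes close to it in the oxygen response were not called. Hif1a differed by 0.12 ± 0.12 in XY gonads (adjusted p = 0.618) and by 0.03 ± 0.12 in XX gonads (adjusted p = 0.9), and over all stages by 0.01 ± 0.05 between the karyotypes. It ran over 8.03, 8.24 and 8.37 (lowest, median, highest) in 5 XY arrays at E12.0, against 7.78, 8.11 and 8.29 in 8 XY arrays at E11.0. Vegfa, Egln1, P4ha2, Mxi1, Slc2a3 and Pdk1 were likewise called in none of the changes or of the comparisons of karyotypes and strains over all stages. The exception was Egln1, which was lower in 129S1 without the E11.6 array (−0.10 ± 0.04, adjusted p = 0.0475, or 0.103 with it). Pdk1 encodes a kinase that restrains the entry of pyruvate into the citric acid cycle. Pfkfb3, which makes the activator of phosphofructokinase, was called in 129S1 XY gonads alone (0.52 ± 0.16, adjusted p = 0.0272), where its 2 arrays at E12.0 read 8.15 and 7.55, against 7.38, 7.43, 7.39, 7.32 and 7.15 at E11.0, close to the median of the array, and without replicate 1 of E12.0 the call was lost (adjusted p = 0.689).

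Genes around the members were read in the same comparisons. Of all probes, 9.15% were called lower and 7.14% higher in XY gonads, and 5.72% lower and 5.98% higher in XX gonads. Of 8 further glycolytic genes with 9 tested probes, 2 probes fell and 1 rose in XY gonads. Eno3, the muscle enolase, fell by 0.89 ± 0.11 in XY gonads (adjusted p = 2.04e-09) and by 0.52 ± 0.11 in XX gonads (adjusted p = 3e-04). Pfkfb4 fell by 0.44 ± 0.09 in XY gonads (adjusted p = 0.000122) and rose by 0.31 ± 0.09 in XX gonads (adjusted p = 0.0114). Of 28 probes of further hypoxia-induced genes, 7 fell and 3 rose in XY gonads, and 1 fell and 3 rose in XX gonads. All 3 tested probes of Kdm3a, a histone demethylase induced by low oxygen, fell in XY gonads, the strongest by 0.77 ± 0.11 (adjusted p = 7.26e-08), and Angptl4 rose by 0.58 ± 0.11 in XY gonads (adjusted p = 8.16e-05) and by 1.62 ± 0.11 in XX gonads (adjusted p = 2.53e-17). Of 7 probes of the HIF pathway, 1 fell in each karyotype, that of Rbx1, a subunit of the ligase that degrades HIF-1α, and of 17 probes of the citric acid cycle and respiratory chain, 1 fell in each (Idh3b in XY, Ogdh in XX).

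Markers of other cells moved in the same comparison. Of all probes, 9.15% were called lower and 7.14% higher in XY gonads, and 5.72% lower and 5.98% higher in XX gonads. Within strains, 6.82% were called lower and 5.38% higher in 129S1 XY gonads, and 1.99% lower and 3.59% higher in B6 XY gonads. Over the stages, 5.3% of all probes were called higher in XY than in XX gonads. In XY gonads 4 of 11 macrophage probes fell between E11.0 and E12.0, in 3 of 7 genes (Lyz1 by 1.09 ± 0.26, adjusted p = 0.00175), and the mean over the list ran over 7.57, 7.89 and 8.42 at E12.0, against 8.05, 8.27 and 8.51 at E11.0. Within strains, 5 of 11 macrophage probes fell in 129S1 XY gonads (median −0.52) and 0 in B6 XY gonads (median −0.12), with the list mean at 7.57 to 7.66 at E12.0, against 8.05 to 8.39 at E11.0, in 129S1, and at 7.89 to 8.42, against 8.25 to 8.51, in B6. Lhx1, 1 of 2 tested mesonephric genes, rose by 0.62 ± 0.14 in XY gonads (adjusted p = 0.000924) and by 0.93 ± 0.20 in 129S1 XY gonads (adjusted p = 0.000748). The other, Pax8, stood at −0.06 in XY and −0.26 in 129S1 XY gonads and was not called, and Pax2 and Wnt9b were too dim to be tested. Of 5 probes of immediate early and heat shock genes, 1 rose in XY gonads and 2 were higher in XY than in XX gonads over the stages. Of 8 probes of red blood cell genes, 1 rose and 1 fell, of 7 probes of germ cell genes 2 rose, and of 7 probes of endothelial genes 0 were called. In XX gonads 2 of 11 macrophage probes fell and 5 of 7 germ cell probes rose. Between strains, 7 of 11 macrophage probes were lower and 1 higher in 129S1 (14.4% of all probes were called lower and 16% higher). The macrophage list mean ran over 7.57, 8.15 and 8.55 in 129S1, against 7.89, 8.32 and 8.90 in B6. Germ cell probes were higher in 129S1 at 6 of 7, the Sertoli cell probes at 3 of 3 and endothelial probes at 5 of 7, with 1 of 7 lower. The part of these cells and genes in the differences of the members was not tested.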

How the data were processed

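The authors extracted RNA from single pairs of gonads, hybridized it to Illumina MouseRef-8 v2.0 arrays, read intensities in GenomeStudio and quantile-normalized them in the R package beadarray. The submitters' processing notes name R 2.12.0. The deposited values are log2 signals after this normalization and were used unchanged. A second deposited table, before normalization, was not used here, since its 74 intensity columns are named by chip position and could not be paired with samples, so detection p values and chips could not be used. Groups and replicates come from the labels of the samples. Of 25697 probes, 23978 had 1 gene symbol and 1719 none. The brighter probes were kept, by the second brightest array of a probe's best group (share 0.5, dimmest 7.59). A limma 3.58.1 model of 24 group means (R 4.3.3) gave moderated t and F tests, adjusted over 12849 probes. The script was tested on simulated data. Arrays give no depth, and precision rests on the number of arrays.

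Genes named are members past the threshold, up to 4 per role and comparison by smallest p, and up to 3 genes of an accompanying list. The members and lists were chosen with earlier results of these data known. Alternatives were no filter, array weights, a prior trend, a replicate block, averaged probes, a linear trend, fits within a group and leaving out each array. Added after seeing the data were E11.8 in place of E12.0 and the E11.6 comparison without 1 array. Figures were drawn with Python 3.11.15 and matplotlib 3.10.9.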

Additional observations from a re-analysis of the deposited data

Results flagged for a closer look

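Aldoa on replicate 3 of 129S1 XY at E11.0 read 12.03, apart from the other 4 arrays of its group, the nearest of which read 12.42. It was the only lone value in 54 tests of 27 genes in the groups of 4 or 5 arrays, and chance flags about 1 such group in 20.

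Changes from E11.0 to E12.0 differed between XY and XX gonads by a test of the difference itself (limma, adjusted over all probes) for 5 genes. The XY change minus the XX change was −0.45 for Pfkm, −0.59 for Aldoc, −0.61 for Adm, −0.80 for Ndrg1 and 1.08 for Bhlhe40. Between strains, the 129S1 change minus the B6 change differed for Ldha, by −0.71.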

How the results depend on the processing

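Counts are of member probes called among 38. The share of all probes called under each alternative is not set beside them, so a changed count is no result about the members. Array quality weights gave 13 in place of 6 for the XX change, 7 in place of 3 in 129S1 XX, 6 in place of 2 in B6 XX and 2 in place of 1 for the strain difference in change. The linear trend gave 2 in place of 1 for the B6 XY change and for the strain difference in change, and averaged probes 1 in place of 2 in B6 XX, where both probes belong to Ndrg1. E11.8 in place of E12.0 gave 7 in place of 11 in XY, 7 in place of 13 in 129S1 XY, 1 in place of 3 in 129S1 XX, 1 in place of 2 in B6 XX, 2 in place of 6 for the difference between XY and XX changes and 0 in place of 1 for that between strains. The causes were not tested.

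Leaving out single arrays gave 10 to 12 in XY, 4 to 8 in XX, 8 to 14 in 129S1 XY (8 without 129S1 XY E12.0 replicate 1), 1 to 2 in B6 XY (2 without B6 XY E11.0 replicate 2), 2 to 4 in 129S1 XX and 1 to 2 in B6 XX (1 without B6 XX E12.0 replicate 3). It gave 5 to 7 for the difference between XY and XX changes, 0 to 2 for that between strains (changed by any of 11 arrays), 9 to 12 for XY against XX over stages, 8 throughout at E12.0, 8 to 12 for strains, 11 to 17 for the stage test and 6 to 9 for the test of karyotype by stage. At E11.6, 1 in place of 3 remained without 129S1 XY E11.6 replicate 2, and in 129S1 alone 2 in place of 6. Of 53 values of single genes past the threshold, 0 changed sign under any alternative and 19 lost their call under at least 1 of those other than leaving out an array.

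Replicate numbers were tested as pairs. Deviations correlated at a mean of 0.09 over 806 pairs of arrays with the same number (−0.66 to 0.75) and of −0.04 over 1815 pairs with different numbers, and 33 of 74 arrays correlated best with their own number. Not every same-numbered pair correlated, and no label ties the numbers to a litter or day, so they were not taken as pairs. A replicate block gave 0 in place of 1 for the strain difference in change, since Ldha then stood at −0.68 (adjusted p = 0.0518), and moved no other count by over 1.5 times.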

Other observations

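The array 129S1 XY E11.6 replicate 2 also stood out beyond the members. The probes farthest above its 2 group mates, named after their values were seen, were those of Mt1, a metallothionein (3.30 higher), Mcm6, a helicase of DNA replication (2.69), Hbb-bt, a globin (2.52), Plk1, a kinase of mitosis (2.32), and Egr1, an immediate early gene (2.00). Of the 30 probes farthest above, 8 were of members.

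Within groups the members moved together more than they did with other probes, as a description over 74 arrays that share their normalization. The median correlation of deviations from the group means was 0.27 over 66 pairs of glycolytic enzymes, 0.30 over 45 pairs of other hypoxia-induced genes and 0.21 over 120 pairs across the 2 roles, and −0.01 between members and all other kept probes. Without replicate 2 of 129S1 XY at E11.6 these medians were 0.13, 0.05 and 0.03, so that the shared movement of the other hypoxia-induced genes rested mostly on that array.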
